A study of Homo sapiens with 12 samples.

Results

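Gene expression in LNCaP cells that lack Bag-1L was compared between cells kept in full medium (FM) and hormone-starved cells given vehicle (EtOH). LNCaP is an established human prostate cancer line that depends on androgen for growth. Bag-1L is the longest protein translated from BAG1 mRNA, and is a nuclear co-chaperone. The knockout line (Bag-1L KO) had been made with a TALEN, an engineered nuclease aimed at the Bag-1L start codon, and was 1 clone isolated by serial dilution. The comparison used 4 of the 12 samples in the series, chosen by their titles: replicates 1 and 2 of Bag-1L KO in FM, and replicates 1 and 2 of Bag-1L KO in EtOH.

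FM cells had been grown in RPMI 1640 with 10% fetal bovine serum. EtOH cells had spent 72 h in phenol red-free RPMI 1640 with charcoal/dextran-treated serum, followed by ethanol for 16 h. Whether the FM cells also received ethanol is not given in the sources used here, so the serum, the medium, the time in stripped serum and the vehicle cannot be told apart. For comparison, values are given from the TALEN control line in FM and in EtOH (4 samples) and from Bag-1L KO cells starved alike and treated with 10 nM dihydrotestosterone (DHT), the most potent natural androgen, for 16 h (2 samples). The FM and DHT comparisons in Bag-1L KO share the same 2 EtOH samples. Poly(A) RNA was sequenced, and the values are read counts per gene. Samples were deposited as biological duplicates. With 2 of them per group, the p-values rest on a spread between replicates that was estimated over all 12 samples, the control line included. They do not measure the spread between clones, since Bag-1L KO was 1 clone.

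Serum carries androgens and other steroids, thyroid hormone, fatty acids and cholesterol, together with insulin-like and other protein growth factors. Charcoal removes small lipophilic molecules and leaves most proteins in place. In prostate cells androgens raise the transcription of genes such as KLK3, which encodes prostate-specific antigen, and lower that of others. Cells that pass from G1 into S phase activate genes of DNA replication through E2F factors bound at their promoters. Genes of mitosis are activated later in the cycle through a DNA element named CHR (cell cycle genes homology region), often beside CCAAT boxes bound by NF-Y.

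The 4 samples held 20826843 to 26152290 gene counts, in a series that ranged up to 30354666. At this depth 3 counts, taken as the floor of detection, were 0.115 to 0.144 CPM (counts scaled to the total of the library). The replicates of FM and of EtOH in Bag-1L KO were the closest of the series, with a median absolute log2 difference of 0.076 and 0.083 over 11374 genes. That distance was 0.238 in control EtOH, the widest of the series. BAG1 (ENSG00000107262, chromosome 9, 33247818 to 33264718, minus strand, GRCh37) had 1452 and 1576 normalized counts (counts divided by a size factor for depth) in Bag-1L KO in FM and 1191 and 1103 in EtOH. Its log2 fold change was 0.40 (SE 0.18, adjusted p = 0.0709). Control cells in FM and EtOH held 1702 to 2703. The counts cover the whole gene, shorter protein forms included, so they do not test the loss of Bag-1L.

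The cells expressed the markers of luminal prostate epithelium. All 10 luminal markers were detected, 5 were called higher in FM and 1 lower, and their summed level was 5650 and 5930 CPM in FM and 3600 and 3640 in EtOH. The luminal keratin KRT8 rose (0.74, SE 0.15) with KRT18 (0.84, SE 0.12), whereas HOXB13, a homeobox factor of the prostate, had a log2 fold change of -0.04. Markers of neuroendocrine cells summed to 6.84 and 6.94 CPM in FM and 19.8 and 20.6 in EtOH. Of 6 tested, 2 were called lower (ENO2 at -2.25 and NCAM1 at -1.37) and none higher. The log2 fold change was positive in 3 of the 6 and negative in 3, so the lower sum was not a fall of every marker. ENO2 is also on the glycolysis and hypoxia list. CHGA, INSM1, NTS and SCG2 were not tested. Markers of fibroblasts and smooth muscle summed to 20.5 and 22.3 in FM and 35 and 36.4 in EtOH, with PDGFRB higher and COL1A1 lower among 4 tested. NCAM1 lost its call without replicate 2 of FM or of EtOH, and PDGFRB without replicate 2 of FM. The part of such cells in the results was not tested. Basal markers summed to 29.1 to 33.6 and endothelial ones to 5.69 to 7.43. The 5 immune markers summed to at most 0.28. Basal KRT5 and TP63 did not pass the filter on low counts. The other basal keratins KRT14 and KRT15 were called higher in FM, but from a low level: KRT14 had 28 and 28 raw counts in FM against 3 and 1 in EtOH, a ratio of 13.7 with a 95% counting interval of 5.08 to 52.2. KRT15 had 31.7 and 48.2 normalized counts in FM and 19.2 and 13.2 in EtOH, and lost its call when any of the 4 samples was left out. KRT14 lost it without replicate 1 of either group. In bulk RNA, a smaller number of cells of a type and less RNA per cell cannot be told apart.

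A large part of the transcriptome differed between FM and EtOH. Genes with a fold change of 1.5 or more and a DESeq2 adjusted p no higher than 0.05 are called here. Of 18549 genes tested, 3578 were called (19.3%), with 1783 higher in FM (9.61%) and 1795 lower (9.68%). In each called gene both FM samples lay on one side of both EtOH samples. The median log2 fold change was 1.01 for the genes called higher and -1.08 for those called lower, and -0.01 over all tested genes. Changes of at least 4-fold were found in 273 higher and 302 lower genes. The genes called higher took up 15.7% and 15.7% of normalized counts in FM and 8.03% and 8.12% in EtOH. Those called lower took up 6.01% and 5.78% in FM and 12.3% and 13% in EtOH. Among 13756 protein-coding genes 1539 were higher and 1454 lower, whereas among 2613 long noncoding RNAs 106 were higher and 216 lower.

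The largest rises, among genes with a mean of at least 100 normalized counts, included enzymes, transporters and a transcription factor. Gene positions are on GRCh37. SLC38A4 (ENSG00000139209, chromosome 12, 47158544 to 47226191, minus strand), a sodium-coupled amino acid transporter, had 372 and 362 normalized counts in FM and 2.26 and 2.82 in EtOH. Its EtOH samples held 2 and 3 raw counts, below and at the floor, so that its ratio of 143 carried a 95% counting interval of 61 to 442. The gene was thus almost silent in starved cells and moderately expressed in FM. TRGC1 (chromosome 7, 38297480 to 38305279, minus strand), a constant segment of the T cell receptor gamma locus that prostate cells transcribe without rearrangement, had 1534 and 1486 in FM and 11.3 and 17.9 in EtOH (log2 fold change 6.67, SE 0.32, adjusted p = 2.13e-94). Of its 50-base words 16.1% also lie in transcripts of other counted genes, which leaves its counts uncertain. The same limit holds for UGT1A6 (35.5%), SMS (22.1%), FOLH1 (18.9%), ADH1C (16.5%) and KRT18 (16.2%). CCDC141 had 403 and 402 in FM and 9.04 and 10.4 in EtOH (log2 fold change 5.37, SE 0.37). These genes were picked for a large change and for groups that do not overlap, so the gap between FM and EtOH was set by the choice.

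UGT2B28, UGT2B11 and UGT2B4, which encode members of an enzyme family that attaches glucuronic acid to steroids and other small molecules, were among the 15 largest rises. UGT2B28 (chromosome 4, 70146193 to 70160768, plus strand) had 980.3 and 1120.1 normalized counts in FM and 21.5 and 21.6 in EtOH (log2 fold change 5.61, SE 0.27, adjusted p = 3.34e-91). UGT2B11 (chromosome 4, 70065669 to 70080466, minus strand) had 1690.1 and 2008 in FM and 83.6 and 64.9 in EtOH (log2 fold change 4.65, SE 0.18). UGT2B4 had 853 and 938 in FM and 45.2 and 55.5 in EtOH (log2 fold change 4.14, SE 0.21). These are neighbours on chromosome 4 with near-identical stretches: 34.3%, 36.1% and 3.16% of their 50-base words occur in other counted genes. PGC (chromosome 6, 41704449 to 41721847, minus strand), which encodes the protease precursor pepsinogen C, had 795 and 811 in FM and 19.2 and 17.9 in EtOH (log2 fold change 5.44, SE 0.28, adjusted p = 2.17e-80). MAF (chromosome 16, 79619740 to 79634634, minus strand), a basic leucine zipper transcription factor, had 2730.0 and 2868 in FM and 126 and 129 in EtOH (log2 fold change 4.46, SE 0.15). ELOVL2, which elongates polyunsaturated fatty acids, was the most abundant of the 15 and had 6309.8 and 5859 in FM and 318 and 337 in EtOH (log2 fold change 4.22, SE 0.12).

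The other 6 of the 15 largest rises started from at most 32.0 normalized counts in EtOH. They were LAMA1, a laminin chain of basement membranes (4.70), the alcohol dehydrogenase ADH1C (4.52), the glucose transporter SLC2A3 (4.38), DOCK8, an exchange factor for a small GTPase (4.34), the phospholipase PLA2G4E (4.28) and the dehydrogenase SDR9C7 (4.23). LAMA1 had 709.8 and 786 normalized counts in FM and 24.9 and 32.0 in EtOH, and SLC2A3 had 180.0 and 228 in FM and 9.04 and 10.4 in EtOH.

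The largest falls were as pronounced, and several of these genes were almost lost in FM. CAMK2N1 (ENSG00000162545, chromosome 1, 20808884 to 20812703, minus strand), an inhibitor of the kinase CaMKII, had 35.4 and 39.5 normalized counts in FM and 2065 and 1874 in EtOH, and its FM level was 1.9% of that in EtOH (log2 fold change -5.72, SE 0.21, adjusted p = 2.92e-167). PLPPR1 (chromosome 9, 103791009 to 104087417, plus strand), a phosphatase-related membrane protein of neurons, had 44.8 and 40.6 in FM and 1188 and 1237 in EtOH (log2 fold change -4.83, SE 0.23). ACKR3 (chromosome 2, 237476430 to 237490997, plus strand), an atypical receptor for the chemokine CXCL12, was the most abundant of the 15 falls in starved cells and had 649 and 601 in FM and 8548 and 8044 in EtOH (log2 fold change -3.73, SE 0.11). FM samples lay below EtOH samples by more than 10-fold in all 3 genes, which were picked for a large fall and groups that do not overlap.

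The other falls included a plasma protein and several enzymes. GC, the vitamin D-binding protein of plasma, had 89.5 and 84.4 normalized counts in FM and 1454 and 1429.5 in EtOH (log2 fold change -4.05, SE 0.15). GLYATL3, related to glycine acyltransferases, had 27 and 19.7 in FM and 786 and 901 in EtOH (log2 fold change -5.16, SE 0.27). TGM3, a transglutaminase of the epidermis, had 24.3 and 32.9 in FM and 589 and 473 in EtOH (log2 fold change -4.23, SE 0.26). FBP2, a gluconeogenic phosphatase, fell (-3.99) together with the membrane protease TMPRSS6 (-3.92), the kinase DAPK1 (-3.99), the fibril-associated collagen COL16A1 (-3.55) and PREX1, an exchange factor for Rac (-3.48). LRRN1 (-3.76), MAB21L4 (-3.77), DUSP5 (-3.45) and AMIGO2 (-3.35) completed the list. FBP2 shares 18.2% of its exonic length with the neighbour PCAT7, and the strand setting of the counting is not given in the sources used here, so reads of such neighbours cannot be told apart.

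**Figure D1:**
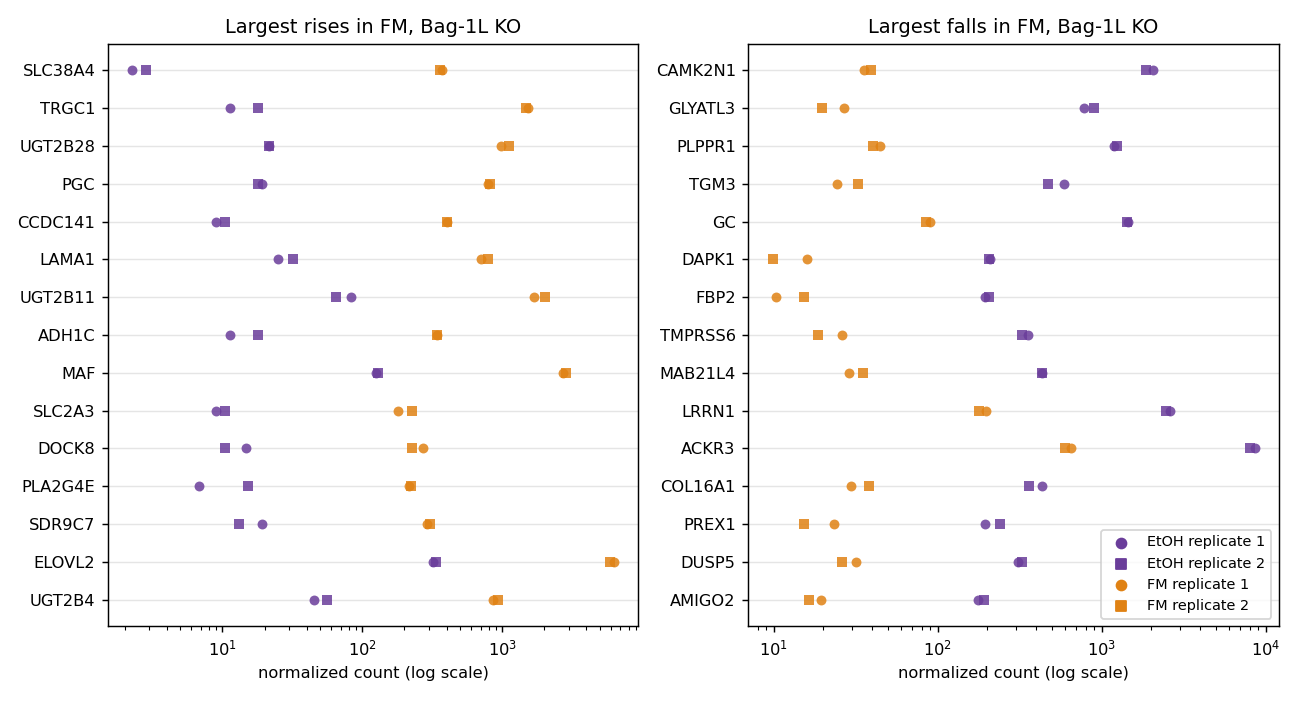
Normalized counts (log axis) of the 15 largest rises and 15 largest falls in Bag-1L KO cells, in the 2 EtOH samples (purple) and the 2 FM samples (orange), with a circle for replicate 1 and a square for replicate 2. In all 30 genes the FM samples lie to one side of the EtOH samples, which the rule for naming them required. Replicates lie close together beside that gap.

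The 25 gene lists described next were tested as single genes within the fit of all genes. The lists were written with earlier results of these data known, so their counts and medians are descriptions and not independent tests. Their members are shown in the plot of list responses. The androgen-induced list, G1/S list and G2/M list had the highest medians, and the androgen-repressed list the lowest.

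**Figure D2:**
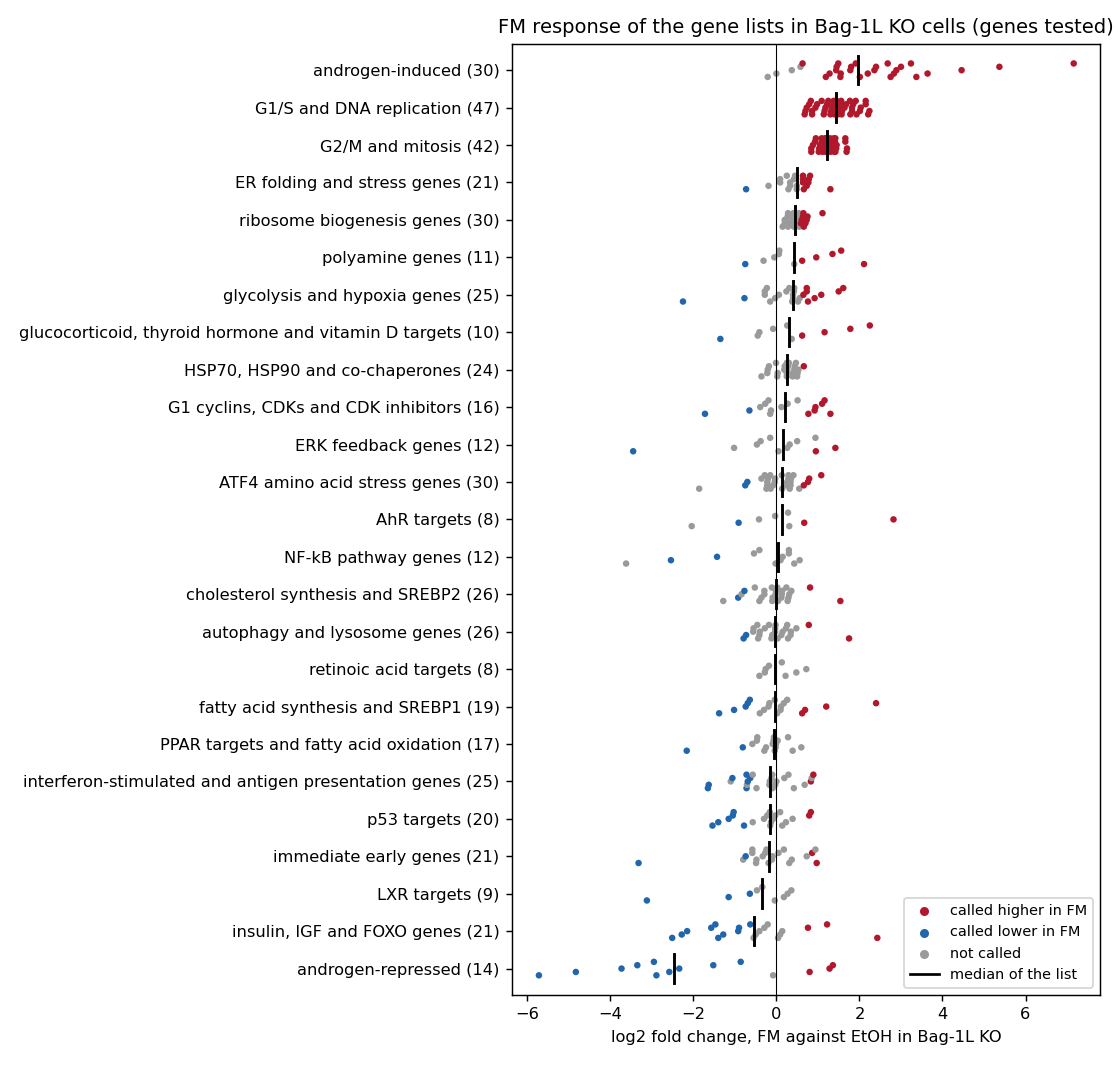
Log2 fold change of FM against EtOH in Bag-1L KO cells for each tested member of the 25 lists, ordered by the list median (black bar), with the number of members tested in parentheses. Members called higher are red, members called lower blue and the others grey. All 47 G1/S and all 42 G2/M members are red, whereas most other lists hold members of each colour.

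Androgen-induced genes rose in FM. Of 33 listed genes 30 passed the filter on low counts, and of these 26 were called higher and none lower, by DESeq2 and by edgeR (9.61% of all tested genes were called higher). None was lower at an unadjusted p under 0.05 either. Their median log2 fold change was 1.96, beside -0.01 over all genes. The list holds SLC38A4, CCDC141 and MAF, which are among the largest rises given above. HPGD, ORM1 and STEAP4 did not pass the filter, and held at most 6.53 normalized counts in any of the 4 samples. FKBP5 (ENSG00000096060, chromosome 6, 35541362 to 35696360, minus strand), a co-chaperone of steroid receptors, had 17689.7 and 18174 normalized counts in FM and 1450.2 and 1424 in EtOH (log2 fold change 3.64, SE 0.10). SLC45A3, which encodes the prostate antigen prostein, had 20450.5 and 20773 in FM and 2123 and 2235 in EtOH (log2 fold change 3.24, SE 0.12, adjusted p = 1.06e-169). TMPRSS2 (chromosome 21, 42836227 to 42903043, minus strand), a membrane-bound serine protease, had 6267 and 7051 in FM and 857 and 804 in EtOH (log2 fold change 3.0, SE 0.12, adjusted p = 1.9e-140). All of these were several-fold above EtOH, and as in every called gene the groups did not overlap.

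The kallikrein genes KLK2 and KLK3 lie in 1 cluster on chromosome 19 with KLK4. KLK3 had 20128 and 23182 normalized counts in FM and 7848 and 7546 in EtOH (log2 fold change 1.49, SE 0.13). KLK2 had 24561 and 26813 in FM and 7397 and 7306 in EtOH (log2 fold change 1.80, SE 0.12). KLK4 had 2946 and 2896 in FM and 2885 and 2950.3 in EtOH, and its groups overlapped (log2 fold change 0.00, SE 0.15). With DHT the log2 fold changes of KLK3, KLK2 and KLK4 were 1.24, 1.91 and 0.88, all called higher. KLK4 thus rose with DHT, whereas its FM and EtOH levels could not be separated.

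The members that were not called in FM included abundant genes. STEAP2, a metalloreductase, had 11959 and 11132 normalized counts in FM and 13138 and 13574 in EtOH (log2 fold change -0.21, SE 0.15, adjusted p = 0.307). CAMKK2, a kinase that activates AMPK, had 5656 and 5501 in FM and 3657 and 3821 in EtOH, with non-overlapping groups (log2 fold change 0.58, SE 0.10, adjusted p = 2.38e-07). Its fold of 1.49 fell just short of the minimum, and it was called in 4 of the 13 alternative fits. With DHT its log2 fold change was 1.62. Over the 30 tested members the median was 2.01 with DHT, with 28 called higher (4.43% of all genes were called higher with DHT and 3.24% lower). In the control line the median of the FM response was 1.6, with 24 called higher and 1 lower (9.81% and 11.5% of all genes).

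Androgen-repressed genes fell in FM, with exceptions. All 14 listed genes were tested, 10 were called lower and 3 higher (9.68% and 9.61% of all genes), and the median was -2.46. Besides CAMK2N1, PLPPR1, ACKR3 and AMIGO2, given above, GASK1B had 45.7 and 46.0 normalized counts in FM and 306 and 375 in EtOH (log2 fold change -2.89, SE 0.24) and BCHE, which encodes the enzyme butyrylcholinesterase, had 191 and 227 in FM and 1269 and 1219 in EtOH (log2 fold change -2.58, SE 0.16). FOLH1, which encodes prostate-specific membrane antigen, fell from a high level, with 11972 and 12129 in FM and 21592 and 22082 in EtOH (log2 fold change -0.86, SE 0.09). The 3 members that rose were UGT2B15 (1.36, SE 0.16), UGT2B17 (1.28, SE 0.19) and the membrane proteoglycan TMEFF2 (0.80, SE 0.10).

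The fitted falls in FM and with DHT are given side by side. CAMK2N1 had log2 fold changes of -5.72 in FM and -1.96 with DHT, PLPPR1 -4.83 and -2.55, and ACKR3 -3.73 and -1.28. UGT2B15 and UGT2B17 went opposite ways, with 1.36 and 1.28 in FM but -0.99 and -0.89 with DHT, all of them called. With DHT 12 of the 14 were called lower and 1 higher (3.24% and 4.43% of all genes), with a median of -1.29. In control FM 8 were called lower and 3 higher (11.5% and 9.81% of all genes), with a median of -1.68. No starvation or treatment time is given for the FM samples, whereas DHT was given for 16 h after 72 h of starvation. The difference between FM and DHT was not tested.

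**Figure D3:**
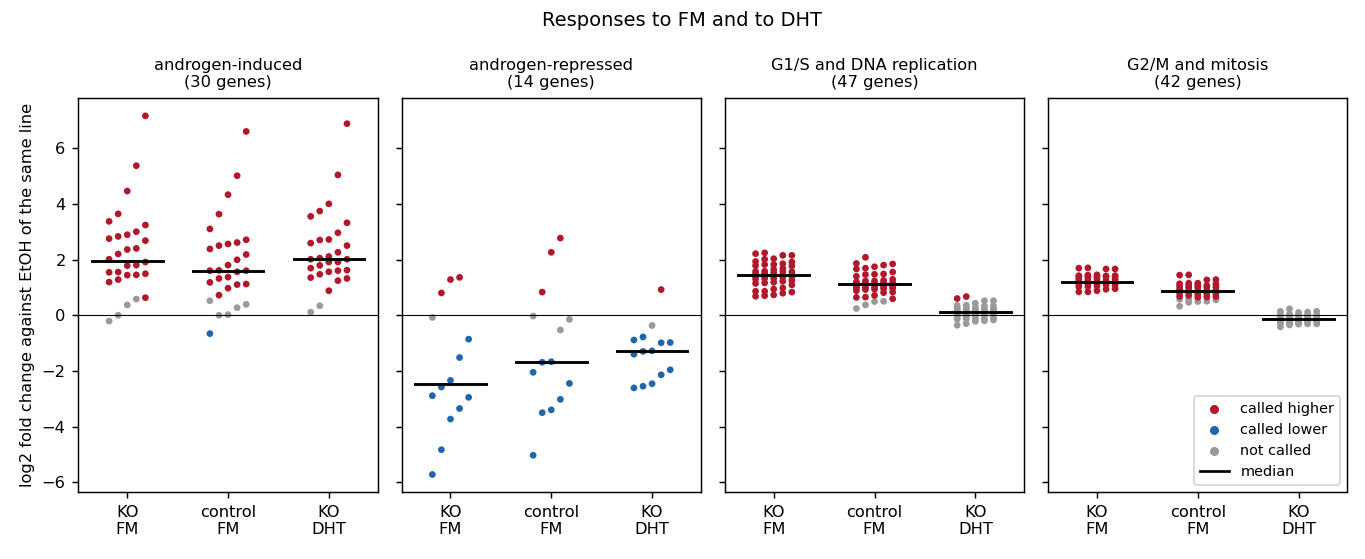
Log2 fold change against EtOH of the same line for the tested members of 4 lists, in Bag-1L KO with FM, control with FM, and Bag-1L KO with DHT (red: called higher, blue: called lower, grey: not called, black bar: median). The androgen-induced medians are 1.96, 1.6 and 2.01, whereas the G1/S medians are 1.43, 1.12 and 0.13 and the G2/M medians 1.21, 0.88 and -0.15.

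Every tested gene of the cell cycle lists rose in FM. All 47 tested genes of the G1/S and DNA replication list were called higher in FM, with log2 fold changes from 0.68 to 2.24 and a median of 1.43 (9.61% of all genes were called higher). All 42 genes of the G2/M and mitosis list were called higher as well, from 0.84 to 1.7, with a median of 1.21. With DHT 2 of the 47 G1/S genes were called higher by DESeq2 and none of the 42 G2/M genes was called. Over all genes 4.43% were called higher with DHT and 3.24% lower. The list medians with DHT were 0.13 and -0.15. At an unadjusted p under 0.05, 10 G1/S genes were higher with DHT and 1 was lower, and 1 G2/M gene was higher and 8 were lower. In control FM 43 and 35 were called higher (9.81% of all genes), with medians of 1.12 and 0.88.

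Among the G1/S genes, regulators and replication factors moved most. E2F8, an E2F factor that represses transcription, had 508 and 437 normalized counts in FM and 88.2 and 111 in EtOH (log2 fold change 2.24, SE 0.21, adjusted p = 2.37e-25). RRM2 (chromosome 2, 10260825 to 10351851, plus strand), the small subunit of ribonucleotide reductase that makes deoxynucleotides, had 7922 and 7209.6 in FM and 1547 and 1711 in EtOH (log2 fold change 2.21, SE 0.11, adjusted p = 4.09e-85). CDC45, part of the replicative helicase, had 1221 and 1279 in FM and 264 and 297 in EtOH (log2 fold change 2.15, SE 0.16). FM exceeded EtOH by more than 4-fold in each. E2F2, an activating E2F factor, had 387 and 414 in FM and 90.4 and 90.3 in EtOH (log2 fold change 2.15, SE 0.20). MCM10, needed to start replication, had 1400.0 and 1317 in FM and 337 and 329 in EtOH (2.03, SE 0.13). MYBL2, the MYB factor that joins the mitotic transcription complex, had 5123 and 5198 in FM and 1191 and 1372 in EtOH (2.01, SE 0.12). CDC6, a loader of the replicative helicase, also rose (1.85, SE 0.10).

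The rises of the G2/M genes were close in size. HMMR, a spindle protein, had 2438 and 2378 normalized counts in FM and 703 and 780.2 in EtOH (log2 fold change 1.7, SE 0.13, adjusted p = 1.64e-39). AURKB (chromosome 17, 8108051 to 8113918, minus strand), the kinase of the chromosomal passenger complex, had 1335 and 1444 in FM and 429.5 and 433 in EtOH (log2 fold change 1.69, SE 0.16, adjusted p = 8.94e-24). CCNA2, the cyclin of S phase and early mitosis, had 1873 and 1757 in FM and 540.3 and 605 in EtOH (log2 fold change 1.66, SE 0.12). Their changes lay within an SE of each other. CDC20, an activator of the anaphase-promoting complex, was the most abundant of the 6 named here and had 8297 and 8164 in FM and 2542 and 2666 in EtOH (1.66, SE 0.11). ANLN (1.45) acts in cytokinesis and MAD2L1 (1.44) in the spindle checkpoint.

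Because members of these lists moved together, their promoters were read from RefSeq windows of 300 bases (250 before to 50 after the annotated start, GRCh38.p14). Letters of 4 kinds were searched on both strands: E2F as TTTCCCGC, TTTGGCGC or TTTCGCGC, CHR as TTTGAA, NF-Y as CCAAT, and the sterol element SRE as TCACCCCAC or TCACGCCAC. The sequences below are the 3 members of each list with the largest rise that the table held, followed by 1 further member of each chosen because its window holds the list's motif. All are written 5′ to 3′ on the strand of the gene, with each match in capitals, and neighbouring matches may overlap. E2F8 was not in the table.
RRM2, chr2:10122489-10122788, plus strand: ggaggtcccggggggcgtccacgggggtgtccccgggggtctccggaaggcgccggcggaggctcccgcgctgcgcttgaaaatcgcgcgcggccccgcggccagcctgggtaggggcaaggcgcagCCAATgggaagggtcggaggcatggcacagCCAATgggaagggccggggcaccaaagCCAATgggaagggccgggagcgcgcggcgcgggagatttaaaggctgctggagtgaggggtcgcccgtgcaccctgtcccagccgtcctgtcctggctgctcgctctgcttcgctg
CDC45, chr22:19479670-19479969, plus strand: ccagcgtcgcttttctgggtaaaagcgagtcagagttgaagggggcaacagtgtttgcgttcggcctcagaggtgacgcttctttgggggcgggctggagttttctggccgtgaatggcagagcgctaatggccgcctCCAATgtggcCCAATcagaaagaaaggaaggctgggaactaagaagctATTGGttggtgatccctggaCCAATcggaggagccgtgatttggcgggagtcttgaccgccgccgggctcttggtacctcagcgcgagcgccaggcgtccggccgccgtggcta
E2F2, chr1:23531184-23531483, minus strand: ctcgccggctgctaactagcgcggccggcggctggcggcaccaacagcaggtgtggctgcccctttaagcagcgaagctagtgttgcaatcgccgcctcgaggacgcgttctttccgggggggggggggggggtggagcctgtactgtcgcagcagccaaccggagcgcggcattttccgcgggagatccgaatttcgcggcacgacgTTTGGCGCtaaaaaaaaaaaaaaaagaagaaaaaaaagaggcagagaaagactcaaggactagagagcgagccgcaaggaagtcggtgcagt
CDC6, chr17:40287629-40287928, plus strand: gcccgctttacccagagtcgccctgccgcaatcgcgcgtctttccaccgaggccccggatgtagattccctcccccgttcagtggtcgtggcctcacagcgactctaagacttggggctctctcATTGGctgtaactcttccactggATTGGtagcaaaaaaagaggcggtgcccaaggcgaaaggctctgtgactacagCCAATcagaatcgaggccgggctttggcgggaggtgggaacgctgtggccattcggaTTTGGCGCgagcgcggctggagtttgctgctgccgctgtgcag
HMMR, chr5:163460382-163460681, plus strand: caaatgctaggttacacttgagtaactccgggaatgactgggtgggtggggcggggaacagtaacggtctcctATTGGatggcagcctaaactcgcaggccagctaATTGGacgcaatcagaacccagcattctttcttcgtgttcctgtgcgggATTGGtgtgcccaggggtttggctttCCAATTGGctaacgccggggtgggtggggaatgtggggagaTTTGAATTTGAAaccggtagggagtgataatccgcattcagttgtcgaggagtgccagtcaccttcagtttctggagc
AURKB, chr17:8210176-8210475, minus strand: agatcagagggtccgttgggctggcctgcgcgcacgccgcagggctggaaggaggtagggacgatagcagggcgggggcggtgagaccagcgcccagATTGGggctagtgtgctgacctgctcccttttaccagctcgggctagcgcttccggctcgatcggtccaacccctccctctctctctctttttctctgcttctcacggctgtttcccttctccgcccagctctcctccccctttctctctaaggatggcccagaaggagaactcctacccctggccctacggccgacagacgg
CCNA2, chr4:121823834-121824133, minus strand: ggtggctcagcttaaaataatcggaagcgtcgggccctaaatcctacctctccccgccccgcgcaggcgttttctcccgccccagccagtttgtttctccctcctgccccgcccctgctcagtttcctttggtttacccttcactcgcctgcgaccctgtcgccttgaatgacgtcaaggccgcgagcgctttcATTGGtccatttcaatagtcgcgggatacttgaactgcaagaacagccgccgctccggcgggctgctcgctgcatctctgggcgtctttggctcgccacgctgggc
CDC20, chr1:43358731-43359030, plus strand: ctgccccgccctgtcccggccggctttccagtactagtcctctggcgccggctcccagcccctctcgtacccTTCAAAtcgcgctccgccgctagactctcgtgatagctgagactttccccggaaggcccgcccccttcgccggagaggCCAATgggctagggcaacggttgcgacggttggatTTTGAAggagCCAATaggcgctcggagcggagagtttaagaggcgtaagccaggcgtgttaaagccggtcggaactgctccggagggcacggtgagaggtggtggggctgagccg

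The windows of RRM2 and CDC45 hold 3 and 4 NF-Y matches and no E2F match in these letters. That of E2F2 holds an E2F match whose first base is at -42 from the start, and that of CDC6 holds 1 at 7 beside 3 NF-Y matches. HMMR holds 5 NF-Y matches and 2 adjoining CHR matches at -28 and -22. CDC20 holds CHR matches at -178 and -65, the second close before an NF-Y match at -55. AURKB and CCNA2 hold a single NF-Y match each and no CHR match in these letters. The AURKB window runs into what reads as coding sequence, so it may lie downstream of other starts of the gene. Each gene was read at 1 annotated start, and variant letters of a motif were not searched. The windows of CDC45 and CDC6 also hold tttggcggg, which was not among the E2F letters. A window without a match is thus not shown to lack a site.

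Over the whole lists, E2F letters were found in 21 of 41 G1/S promoters in the table (51.2%), 4.4% of the promoters of tested protein-coding genes and 2.79% of all 27305 windows. CHR letters were found in 25 of 35 G2/M promoters (71.4%), against 9.81% of tested genes and 15.4% of all windows. In G1/S promoters CHR letters were found in 4.88%, and in G2/M promoters E2F letters in 8.57%. NF-Y letters occurred in 56.1% of G1/S and 80% of G2/M promoters, against 36.5% of tested genes. They were also found in 84.2% of 19 cholesterol synthesis promoters, 85% of 20 endoplasmic reticulum promoters, 62.5% of ATF4 promoters and 57.1% of polyamine promoters. Genes called higher in general held E2F letters in 7.28% and CHR letters in 15.9% of 1264 promoters, and genes called lower in 2.2% and 7.88% of 1092. SRE letters, which the plot leaves out, were found in 0.603% of tested genes, in 1 of 19 cholesterol synthesis promoters and in none of the G1/S and G2/M promoters. These are matches of letters, not measured binding. The shares of a list follow from which genes it holds, called or not, and were not tested against the FM response.

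**Figure D4:**
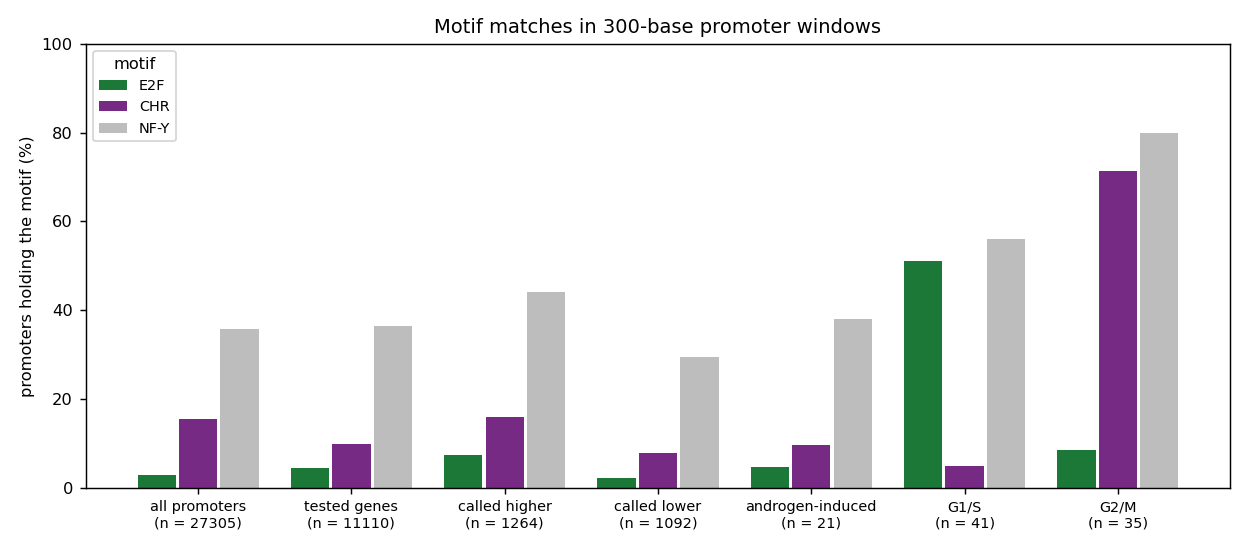
Share of 300-base promoter windows that hold the E2F, CHR or NF-Y letters on either strand, for all promoters of the table, tested protein-coding genes, genes called higher or lower in FM, and 3 lists (n, promoters matched). E2F stands at 51.2% in the G1/S list and CHR at 71.4% in the G2/M list, whereas in the other sets shown they reach at most 8.57% and 15.9%.

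The upstream regulators of G1 were less uniform. Of 17 listed cyclins, cyclin-dependent kinases and their inhibitors, 16 were tested, of which 6 were called higher and 2 lower (9.61% and 9.68% of all genes). The lower count was 1 without any 1 of the 4 samples. CDK2 rose, with 2552 and 2374 normalized counts in FM and 1017 and 982 in EtOH (log2 fold change 1.3, SE 0.11), as did CDK6 (1.16, SE 0.18), the inhibitors CDKN2C (1.10, SE 0.15) and CDKN2D (0.94, SE 0.21) and the pocket protein RBL1 (0.92, SE 0.15). CDKN1C, an inhibitor of G1 kinases, fell, with 37.3 and 37.3 in FM and 121 and 124 in EtOH (log2 fold change -1.72, SE 0.31, adjusted p = 3.91e-07). CCND1, the cyclin D that links growth signals to G1, had 5077 and 4794 in FM and 5441 and 5824 in EtOH, and its log2 fold change of -0.19 (SE 0.11, adjusted p = 0.175) did not pass. CDK4 (0.51) and CDKN1A (-0.13) were not called either.

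Of 30 ribosome biogenesis genes 9 were called higher (9.61% of all genes), and all 30 log2 fold changes were positive, from 0.15 to 1.11 with a median of 0.44. LYAR had 1630.4 and 1715 normalized counts in FM and 826 and 726 in EtOH (log2 fold change 1.11, SE 0.14), and the rises of PNO1 (0.73), the helicase DDX21 (0.70) and NOP58 (0.66) were smaller. NPM1, which encodes nucleophosmin, the abundant nucleolar chaperone, was at 0.28 (SE 0.14, adjusted p = 0.138). With DHT none of the 30 was called by DESeq2 (4.43% of all genes were called higher), with 10 higher at an unadjusted p under 0.05 and a median of 0.16.

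Of 11 polyamine genes 5 were called higher and 1 lower (9.61% and 9.68% of all genes). The lower call, of AZIN2, was lost when any of the 4 samples was left out. SMS, spermine synthase, had 11059 and 12153 normalized counts in FM and 2794 and 2601 in EtOH (log2 fold change 2.11, SE 0.15, adjusted p = 3.05e-45). ODC1, ornithine decarboxylase, which makes the first polyamine putrescine, had 55034 and 59059 in FM and 23132 and 21602 in EtOH (log2 fold change 1.35, SE 0.14). SAT1, which acetylates polyamines for export or breakdown, had 3193 and 3618 in FM and 1223 and 1092 in EtOH (log2 fold change 1.56, SE 0.16). Enzymes of synthesis and of breakdown thus both rose. With DHT the log2 fold changes were 1.81 for SMS, 2.77 for ODC1 and 1.66 for SAT1.

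In the glycolysis and hypoxia list 25 of 27 genes were tested, 8 were called higher and 2 lower (9.61% and 9.68% of all genes), with a median of 0.40. LDHA, lactate dehydrogenase A, had 33036 and 32699 normalized counts in FM and 11536 and 11629 in EtOH (log2 fold change 1.5, SE 0.08, adjusted p = 1.12e-67). The lactate exporter SLC16A3 (1.08, SE 0.19) and the glucose transporter SLC2A1 (0.92, SE 0.13) rose too. ENO2, the neuronal enolase, fell, with 74.6 and 72.3 in FM and 352 and 348 in EtOH (log2 fold change -2.25, SE 0.21), and so did ALDOC (-0.77). The abundant enzymes GAPDH (0.31), ENO1 (0.56) and PKM (0.38) did not reach the fold minimum. LDHA had a log2 fold change of 0.18 with DHT and was not called there.

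Of 26 cholesterol synthesis genes 2 were called higher and 2 lower, 7.69% each way beside 9.61% and 9.68% of all genes, with a median of -0.01. EBP, a sterol isomerase, rose, with 4713 and 4912 normalized counts in FM and 2890.3 and 2605 in EtOH (log2 fold change 0.81, SE 0.17, adjusted p = 1.27e-05). TM7SF2 (-0.92, SE 0.15) and HSD17B7 (-0.77, SE 0.13) fell. INSIG1, which holds back sterol synthesis when sterols are plentiful, was at -0.36 (SE 0.10) and SREBF2, the transcription factor of the pathway, at -0.29 (SE 0.13), neither called. With DHT 8 of the 26 were called higher (4.43% of all genes), with a median of 0.43.

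Of 19 tested fatty acid synthesis genes 4 were called higher and 5 lower (9.61% and 9.68% of all genes). ACSL3, which activates long-chain fatty acids, had 38098 and 40022 normalized counts in FM and 7235 and 7614 in EtOH (log2 fold change 2.40, SE 0.10, adjusted p = 2.11e-132). The elongase ELOVL5 (1.20, SE 0.09) and the desaturase FADS2 (0.69, SE 0.12) rose. PNPLA3 (-1.38, SE 0.23) and the carbohydrate-responsive factor MLXIPL (-1.02, SE 0.18) fell. FASN, fatty acid synthase, had 28172 and 27969 in FM and 21675 and 27925 in EtOH, and its groups were separated only narrowly (log2 fold change 0.18, SE 0.14, adjusted p = 0.373). With DHT FASN was called, at 1.20, whereas SCD was not called in either (FM -0.17, DHT 0.20).

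Of 17 tested PPAR targets and fatty acid oxidation genes 2 were called lower, 11.8% beside 9.68% of all genes. ACAA2, a thiolase of fatty acid oxidation, had 335 and 378 normalized counts in FM and 669 and 581 in EtOH (log2 fold change -0.81, SE 0.16, adjusted p = 4.88e-06). Of 9 LXR targets 3 were called lower (9.68% of all genes). ABCA1, which exports cholesterol to apolipoprotein, had 11.2 and 5.48 in FM and 71.2 and 76.2 in EtOH (log2 fold change -3.12, SE 0.49, adjusted p = 4.03e-09), and the related exporter ABCG1 had 51.3 and 55.9 in FM and 122 and 115 in EtOH (-1.15, SE 0.26). MYLIP was the third (-0.64), and lost its call without replicate 2 of FM.

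Known target genes of other ligands of serum were then counted. Of 10 tested targets of glucocorticoid, thyroid hormone and vitamin D, 4 were called higher and 1 lower (9.61% and 9.68% of all genes). NR3C1, which encodes the glucocorticoid receptor, and CYP24A1 did not pass the filter on low counts. ZBTB16 and TSC22D3 are also on the androgen-induced list. SGK1, a kinase induced by glucocorticoids, had 298 and 320.0 normalized counts in FM and 54.3 and 74.3 in EtOH (log2 fold change 2.25, SE 0.20, adjusted p = 3.84e-28). ZBTB16, a transcriptional repressor, had 551 and 589 in FM and 159 and 173 in EtOH (1.78, SE 0.20) and the clock gene PER1 had 1214 and 1216 in FM and 540.3 and 547 in EtOH (1.16, SE 0.13). These also responded to DHT, with log2 fold changes of 4.13, 2.72 and 1.82, all called. KLF9, a target of both glucocorticoid and thyroid hormone, was the other gene called higher (0.62, SE 0.12), with 0.19 and no call with DHT, and lost its call without replicate 2 of EtOH. DIO1, a deiodinase that converts thyroid hormone, fell in FM (-1.35) and with DHT (-1.31). None of 8 tested retinoic acid targets was called by DESeq2 and none passed an unadjusted p under 0.05, while edgeR called 1 lower. Of 8 AhR targets 2 were called higher and 1 lower (9.61% and 9.68% of all genes). The higher call of UGT1A6 rested on 13 and 9 raw counts in FM against 2 and 1 in EtOH, a ratio of 7.2 with a 95% counting interval of 2.16 to 37.6, and was lost when any of the 4 samples was left out. CYP1A1, the most typical of them, had 69.0 and 63.6 in FM and 64.4 and 70.6 in EtOH with overlapping groups.

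Growth factor signalling was examined through 3 lists. Of 21 tested immediate early genes 2 were called higher and 2 lower, 9.52% each way and near the 9.61% and 9.68% of all genes. NR4A1, an orphan nuclear receptor, rose, with 942 and 943 normalized counts in FM and 472 and 488 in EtOH (0.97, SE 0.14), as did CCN1 (0.86, SE 0.18). JUND fell (-0.74, SE 0.21), and NR4A2 was called lower from 3 and 2 raw counts in FM against 22 and 27 in EtOH, a ratio of 0.1 with a 95% counting interval of 0.0311 to 0.25. The NR4A2 call was lost without replicate 1 of FM or either replicate of EtOH. Of 12 tested ERK feedback genes 2 were called higher and 1 lower, 16.7% and 8.33%. DUSP5, a phosphatase of nuclear ERK, had 31.7 and 26.3 in FM and 309.7 and 328 in EtOH (log2 fold change -3.45, SE 0.30), whereas SPRY2, an inhibitor of receptor tyrosine kinase signalling, had 202 and 183 in FM and 66.7 and 76.2 in EtOH (1.42, SE 0.22).

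In the insulin, IGF and FOXO list 10 of 21 tested genes were called lower and 3 higher, with a median of -0.55 (9.68% and 9.61% of all genes). CCNG2, a cyclin-like gene that FOXO factors activate when insulin signalling is low, had 752 and 759.5 normalized counts in FM and 4254 and 4379.8 in EtOH (log2 fold change -2.51, SE 0.12, adjusted p = 1.09e-101). SESN3, a sestrin and FOXO target, fell from a high level, with 4471 and 3949 in FM and 19143 and 21729.7 in EtOH (log2 fold change -2.28, SE 0.16). PIK3IP1, an inhibitor of PI3 kinase, had 33.6 and 46.0 in FM and 182 and 168 in EtOH (-2.15, SE 0.29) and PIK3R1, a regulatory subunit of that kinase, 852 and 859 in FM and 2572 and 2508 in EtOH (-1.57, SE 0.11). All 4 were lower in both FM samples than in either EtOH sample, as was every gene called lower. IGF1R, the receptor for insulin-like growth factor, rose instead, with 2741 and 2581 in FM and 491 and 498 in EtOH (log2 fold change 2.43, SE 0.14, adjusted p = 9.6e-64). With DHT, CCNG2, SESN3 and PIK3IP1 had log2 fold changes of -1.43, -0.91 and -1.05, all called, and IGF1R had 2.30. In the control line 11 of the 21 were lower in FM and 3 higher (11.5% and 9.81% of all genes).

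Of 21 genes of folding and stress in the endoplasmic reticulum 9 were called higher and 1 lower (9.61% and 9.68% of all genes), with a median of 0.49. In control FM 1 was called higher and 1 lower (9.81% and 11.5% of all genes), with a median of 0.17. ERN1, the IRE1 sensor of unfolded proteins, had 1506 and 1347 normalized counts in FM and 521 and 633 in EtOH (log2 fold change 1.3, SE 0.17). SDF2L1 (0.81), PDIA4 (0.78), MANF (0.77) and EDEM1 (0.73) rose, while XBP1, the transcription factor activated by IRE1, fell, with 4358 and 4403 in FM and 7464 and 7076 in EtOH (-0.73, SE 0.12). The chaperones HSPA5 (0.33), HSP90B1 (0.49) and CALR (0.42) were not called. With DHT 11 of the 21 were called higher (4.43% of all genes), with a median of 0.69.

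Cytosolic chaperones are the partners of Bag-1 proteins. Of 24 genes encoding HSP70, HSP90 and their co-chaperones (9.61% of all genes were called higher) only HSPH1 was called by DESeq2, higher, with 17435 and 17659 normalized counts in FM and 11029 and 11193 in EtOH (log2 fold change 0.66, SE 0.10). HSPA8, the constitutive HSP70, was at 0.25 (SE 0.08) and HSP90AA1 at 0.25 (SE 0.12). Of 30 ATF4 amino acid stress genes 4 were called higher and 2 lower (9.61% and 9.68% of all genes). The amino acid transporters SLC1A5 (1.08, SE 0.12) and SLC7A5 (0.76, SE 0.13) rose, and DDIT4, an inhibitor of mTOR signalling (-0.75, SE 0.18), and DDIT3 (-0.70, SE 0.18) fell.

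Of 20 tested p53 targets 6 were called lower and 2 higher (9.68% and 9.61% of all genes). SESN1 had 968 and 969 normalized counts in FM and 2645 and 2482 in EtOH (log2 fold change -1.40, SE 0.12) and BTG2, an antiproliferative gene, 1023 and 993 in FM and 2038 and 2084 in EtOH (-1.03, SE 0.10). MDM2, which degrades p53 (-0.03), and CDKN1A (-0.13) were not called, so the falls did not extend to these 2 typical targets. Of 26 autophagy and lysosome genes 2 were called higher and 2 lower (9.61% and 9.68% of all genes). WIPI1, which acts in forming autophagosomes, rose, with 273 and 261 in FM and 85.9 and 73.4 in EtOH (1.75, SE 0.23), and rose with DHT (1.84), whereas GABARAPL1 fell (-0.79, SE 0.12).

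Of 25 tested interferon-stimulated and antigen presentation genes 7 were called lower and 2 higher (9.68% and 9.61% of all genes). Without replicate 1 of FM, or either replicate of EtOH, 4 were lower. HLA-B, a class I heavy chain, had 714 and 787 normalized counts in FM and 1625 and 1507 in EtOH (log2 fold change -1.06, SE 0.18), while B2M, the light chain of the same class I molecules, rose, with 8409 and 9167 in FM and 4846 and 4618 in EtOH (0.89, SE 0.13). This heavy chain and its light chain thus moved in opposite directions. The transcription factor IRF1 fell (-1.65, SE 0.31). HLA genes are highly similar, and 29.6% of the 50-base words of HLA-B are shared. Of 12 tested NF-kB pathway genes 2 were called lower (9.68% of all genes) and none higher by DESeq2, with 2 higher at an unadjusted p under 0.05: RELB had 25.2 and 19.7 in FM and 137 and 126 in EtOH (-2.54, SE 0.34) and TNFAIP2 had 281 and 231 in FM and 685 and 694 in EtOH (-1.43, SE 0.15).

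The FM response of Bag-1L KO was then set against that of the control line by an interaction contrast, the difference of the log2 fold changes (Bag-1L KO minus control). Of 12971 genes tested 180 were called (1.39%), 97 with a more positive and 83 with a more negative response in Bag-1L KO. In 50 of the 180 the gene was called higher in FM in both lines, and in 30 lower in both, so that the size of the response differed and not its direction. In 30 it was called higher and in 26 lower in Bag-1L KO alone. In control alone it was called higher in 11 and lower in 12, in 20 it was called in neither line, and in 1 it was called lower in Bag-1L KO and higher in control. The count moved with single libraries. In control EtOH, whose replicates lay farthest apart, it was 2124 without replicate 1 and 99 without replicate 2, and it was 49 to 80 without any 1 of the other 6 samples.

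Counts in the lists are set beside the 1.39% of all genes. In the androgen-induced list 8 of 30 had a more positive response in Bag-1L KO and 1 a more negative one. TMPRSS2 had log2 fold changes of 3.0 in Bag-1L KO and 1.6 in control, a difference of 1.41 (SE 0.17, adjusted p = 1.34e-13), and SLC45A3 3.24 and 2.61, a difference of 0.63 (SE 0.16, adjusted p = 0.0149). STEAP2 went the other way, with -0.21 and 0.52 (difference -0.73, adjusted p = 0.0408). In the androgen-repressed list 4 of 13 had a more negative difference. PLPPR1 (-1.32, adjusted p = 0.00783) and BCHE (-0.91, adjusted p = 0.00835) fell further in Bag-1L KO, and UGT2B15 (-1.41) and UGT2B17 (-0.98) rose less. In the G1/S list 4 of 47 and in the G2/M list 4 of 42 had a more positive response, among them MYBL2 (0.86, adjusted p = 0.000114) and AURKB (0.94, adjusted p = 0.00602).

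The genes with the largest differences are shown in the plot of the 2 lines. ALDH1A3 (chromosome 15, 101417919 to 101456831, plus strand), which makes retinoic acid from retinal, had 699 and 714 normalized counts in FM and 239.6 and 244 in EtOH in Bag-1L KO and 367 and 387 in FM and 364 and 380.0 in EtOH in control (difference 1.53, SE 0.21, adjusted p = 4.11e-10). Its control samples overlapped between FM and EtOH. An antisense gene covers 32.1% of its exonic length. MYBPC1, a myosin-binding protein of muscle, had 440.2 and 512 in FM and 32.8 and 26.4 in EtOH in Bag-1L KO and 232 and 243 in FM and 51.4 and 55.7 in EtOH in control (difference 1.87, adjusted p = 1.25e-05). TBX15, a T-box transcription factor, had close FM levels in both lines and a lower EtOH level in Bag-1L KO, with 184 and 199.5 in FM and 7.91 and 6.59 in EtOH and, in control, 183 and 196 in FM and 32.4 and 22.9 in EtOH (difference 1.95, adjusted p = 0.0185). PGC rose in both lines and more so in Bag-1L KO (5.44 and 3.88, adjusted p = 0.00292). The TBX15 call was lost without any 1 of the 4 Bag-1L KO or 2 control FM samples, and that of PGC without either Bag-1L KO EtOH sample or replicate 2 of control EtOH, and with edgeR.

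The largest negative differences were of several kinds. RUNX1 (chromosome 21, 36160098 to 37376965, minus strand), a transcription factor, had 73.7 and 72.3 normalized counts in FM and 36.2 and 41.4 in EtOH in Bag-1L KO and 242 and 274 in FM and 37.1 and 37.8 in EtOH in control (difference -1.88, SE 0.37, adjusted p = 0.00017). RND3, a small GTP-binding protein, had 87.7 and 93.2 in FM and 98.3 and 105 in EtOH in Bag-1L KO and 382 and 399.8 in FM and 86.6 and 90.5 in EtOH in control (difference -2.32, SE 0.30). EtOH levels of both genes lay close together in the 2 lines. RND3 was not called in Bag-1L KO, and RUNX1 rose there by 0.91 against 2.79 in control. TNFAIP3, an inhibitor of NF-kB signalling, had 120.3 and 114 in FM and 174 and 167 in EtOH in Bag-1L KO, where it was not called, and 148 and 146 in FM and 55.2 and 54.7 in EtOH in control (difference -1.96, SE 0.29). COLCA1 had 299 and 335 in FM and 2397 and 2544 in EtOH in Bag-1L KO and 258 and 310.3 in FM and 475 and 399.9 in EtOH in control (difference -2.34, SE 0.24), so that its FM levels were close and its EtOH levels far apart. UGT2B11 rose in both lines, with a higher EtOH level and a lower FM level in Bag-1L KO (1690.1 and 2008 in FM and 83.6 and 64.9 in EtOH, against 3105 and 3574 in FM and 23.8 and 21.9 in EtOH in control). ACTA2, smooth muscle actin, was not called in Bag-1L KO (55.0 and 50.4 in FM and 78.0 and 49.9 in EtOH) and fell in control (98.3 and 103 in FM and 374 and 368 in EtOH). The ACTA2 difference was not called without replicate 2 of Bag-1L KO EtOH.

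**Figure D5:**
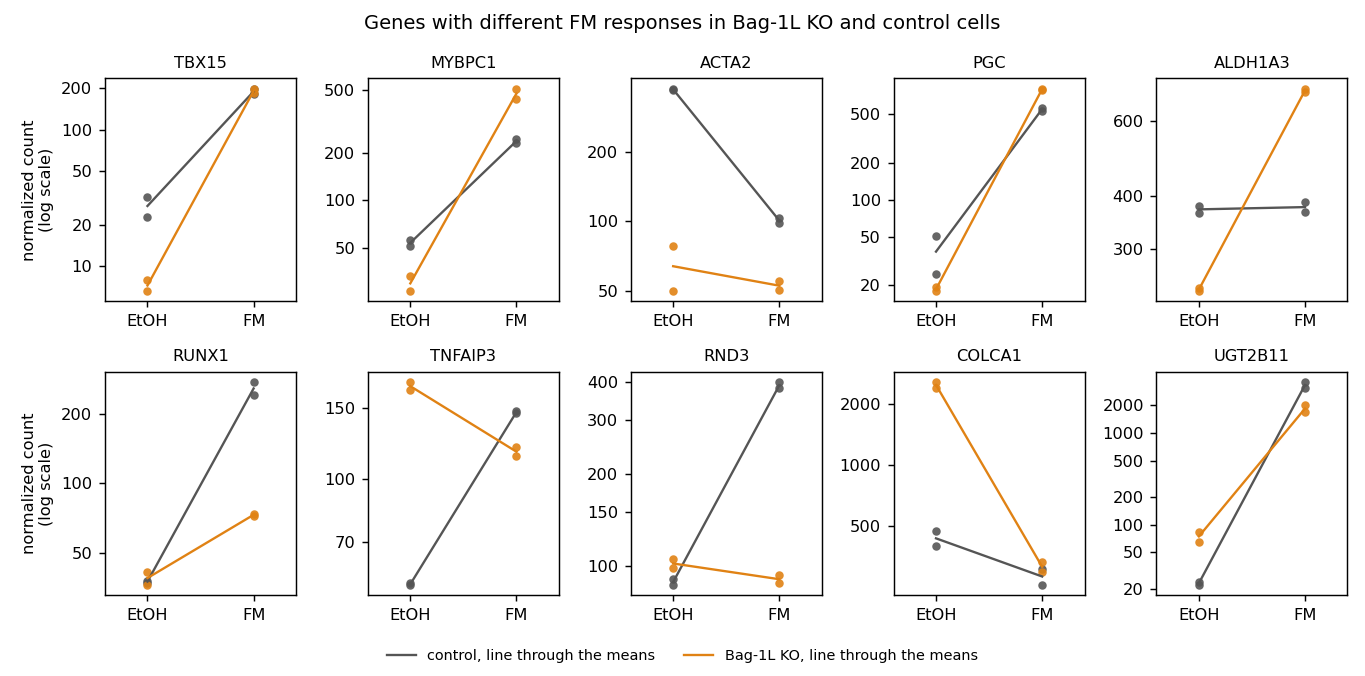
Normalized counts (log axes of differing range) of the 10 genes with the largest differences in FM response, in EtOH and FM, for the control line (grey) and Bag-1L KO (orange). Points are the 2 samples of each group and lines join the group means. RND3 is called higher in control alone, RUNX1 climbs more steeply in control, ALDH1A3 is called higher in Bag-1L KO alone, and the COLCA1 lines start apart in EtOH and nearly meet in FM.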

How the data were processed

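Poly(A) RNA of LNCaP cells had been converted to libraries with a stranded TruSeq kit and sequenced on an Illumina HiSeq 1500. According to the submitters' processing notes and the study's methods, the authors used CASAVA 1.7, aligned reads to GRCh37 with TopHat2 2.0.11 and counted those in Ensembl genes with HTSeq 0.5.3p3, which leaves out reads that map to several places or overlap several genes. The strand setting and the Ensembl release are not given in the sources used here. The deposited values are raw read counts per gene and sample. Reads the counter set aside as ambiguous were 8.25 to 9.95% and those in no gene 4.33 to 5.62%, as shares of the gene counts and these 2 classes together. These entries were left out of totals and tests.

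Groups were taken from the sample titles. All 12 samples entered a single DESeq2 1.42.0 fit (R 4.3.3) with a coefficient per group, over 26156 genes with at least 10 counts in all. FM was compared with EtOH in Bag-1L KO by a two-sided Wald test with Benjamini-Hochberg adjustment and unshrunken log2 fold changes. The same test gave DHT against EtOH, FM against EtOH in control, and the difference between the FM responses. DESeq2 set the adjusted p of the weakest genes to NA, and these were not counted as tested. The alternatives were edgeR 4.0.16, other size factors and filters, only the groups compared, thinned counts, replicate blocks and leaving out each sample. The fits were checked on simulated counts.

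Genes named are the 15 largest rises and falls with a mean of at least 100 normalized counts and groups that do not overlap, up to 6 called and 3 not called members of a list, and the 5 largest differences each way between the lines. Some members on the lists are counted and not named. The members and lists were chosen with earlier results of these data known. Gene positions are GRCh37 (GENCODE v44lift37), and promoter sequences and their positions are RefSeq's on GRCh38.p14. Counting intervals are exact binomial and cover counting error only, since reads are not independent molecules.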

Additional observations from a re-analysis of the deposited data

Results flagged for a closer look

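The FM response differed between Bag-1L KO and control in 10 named genes by the interaction test of the difference itself, given as Bag-1L KO minus control on the log2 scale. It was more positive in Bag-1L KO for TBX15 (1.95), MYBPC1 (1.87), ACTA2 (1.62), PGC (1.56) and ALDH1A3 (1.53). It was more negative for UGT2B11 (-2.54), COLCA1 (-2.34), RND3 (-2.32), TNFAIP3 (-1.96) and RUNX1 (-1.88). For ACTA2 and COLCA1 the lines differed mainly in EtOH: ACTA2 held 374 and 368 normalized counts in control EtOH against 78.0 and 49.9 in Bag-1L KO EtOH, and COLCA1 held 475 and 399.9 against 2397 and 2544. For RND3 and RUNX1 they differed mainly in FM. Groups of 2 samples are too small for a test of outlying samples.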

How the results depend on the processing

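The count of genes called for FM against EtOH in Bag-1L KO (3578) was 5887 with no fold change minimum (3218 higher and 2669 lower) and 1905 with a fold change of at least 2 (901 higher and 1004 lower). It was 4214 with edgeR and 2933 to 3002 when 1 sample was left out (1560 to 1596 higher, 1354 to 1421 lower), and edgeR on the 4 samples alone, added after the data were seen, gave 4741. For the difference between the lines (180) the count was 65 with edgeR, 76 with a fold change of at least 2, and 49 to 2124 when 1 sample was left out, the highest without replicate 1 of control EtOH. Of those 180, 65 were shared with edgeR. With the replicate block the counts were 3514 and 281. Samples with the same replicate number did not deviate together between FM and EtOH in Bag-1L KO (correlation -0.266). Over all 15 pairs of groups the correlation ran from -0.415 to 0.692, and was positive between Bag-1L KO FM and control EtOH (0.474), so the numbers were not taken as pairs. With a crossed replicate block, added after the data were seen, the counts were 3584 and 417. No named gene reversed. Of 223 genes over 13 fits, 36 results dropped below the threshold for a call and 11 passed it. The cause of these moves was not tested. A gene with fewer than 3 counts in a library, or 0.115 to 0.144 CPM, was below detection here.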

Other observations

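Gene families outside the lists were counted by symbol after the values were seen, with no test of the family. Of all tested genes 9.61% were called higher and 9.68% lower. Beyond the UGT2B genes named above, UGT2B10 rose as well, with 80.2 and 91.0 normalized counts in FM and 15.8 and 14.1 in EtOH (2.52, SE 0.44). Of the 7 UGT2B enzymes tested 6 were called higher in FM, with a median log2 fold change of 2.52. With DHT they went both ways: UGT2B28, UGT2B11 and UGT2B4 rose (3.10, 2.43 and 1.94), UGT2B15 and UGT2B17 fell (-0.99 and -0.89), and UGT2B7 and UGT2B10 had -1.76 and -0.50. Of 29 collagen chains 16 were called lower and 1 higher, with a median of -0.89. Among them COL5A1, a fibrillar chain, had 35.4 and 16.4 normalized counts in FM and 229.5 and 241 in EtOH (-3.15, SE 0.30), COL17A1, a chain of hemidesmosomes, had 11.2 and 5.48 normalized counts in FM and 62.2 and 73.4 in EtOH (-3.01, SE 0.68), and COL12A1 had 38.2 and 34.0 normalized counts in FM and 274 and 291 in EtOH (-2.96, SE 0.29). Of 17 keratins 9 were called higher and 2 lower, with medians of 1.24 in FM and 1.27 with DHT, and some of these calls rest on few counts: KRT6B had 0 in both EtOH samples.

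Of 10 Fanconi anaemia genes, which act in the repair of DNA crosslinks, 8 were called higher (median 0.89). Of 21 centromere proteins 15 were higher (median 0.93), and of 12 condensin and SMC proteins, which shape chromosomes, 8 were higher (median 1.0). With DHT their medians were 0.06, -0.10 and -0.09. A pair of members was also higher with DHT: CENPN had log2 fold changes of 3.09 in FM and 2.77 with DHT, and NCAPD3 had 2.47 and 2.98.

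Of 37 complex I subunits 1 was called higher, of 75 mitochondrial ribosomal proteins 7 were higher, of 35 proteasome subunits 6 were higher and 1 lower, and of 82 cytosolic ribosomal proteins 4 were higher and 4 lower. Their medians were 0.15, 0.35, 0.38 and -0.32, beside -0.01 over all genes, and 26, 72, 31 and 11 of their members had a positive log2 fold change. Of 427 ZNF zinc finger genes 13 were higher and 32 lower (median -0.13).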
